A study of Mus musculus with 8 samples.

Results

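The genes described here are 28 named members of cholesterol synthesis, of its control by SREBP and INSIG proteins, and of sterol uptake and export under the LXR receptors, picked by symbol from a table of 25378 genes. All 28 were found and all 28 were high enough to be tested, among 12598 genes tested. They were measured by bulk RNA sequencing of lesional back skin from 8 female wild type C57BL/6 mice aged 6 weeks. Backs of mice in both groups were painted with MC903, 5 nmol for 10 days running. This compound, also known as calcipotriol, acts like vitamin D and gives mice lesions similar to atopic dermatitis. In the propionic acid group (n = 4), the skin then received propionic acid, the short-chain fatty acid, at 1 mM and 1 h after MC903. In the control group (n = 4), a control was applied in its place, and the labels do not say what it held. Skin was collected on day 11. Skin without MC903 is not analysed here, so the values compare lesions with lesions, not with healthy skin.

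Cells make cholesterol from acetyl-CoA through mevalonate, isoprenoid diphosphates, squalene and lanosterol. When sterols in the endoplasmic reticulum run low, SCAP escorts the SREBP-2 precursor (gene Srebf2) to the Golgi, and the released factor switches on the genes of the pathway. INSIG proteins hold SCAP back when sterols are plentiful. When sterols are in excess, oxysterols activate the LXR receptors, which raise the exporters ABCA1 and ABCG1 and the ubiquitin ligase MYLIP (also called IDOL), which lowers sterol uptake by marking lipoprotein receptors for breakdown. In skin, keratinocytes make cholesterol for the lipid layers of the outer barrier, and sebaceous glands put sterols and wax esters into sebum.

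Libraries were of nearly equal depth, with 39034193 to 40194111 recovered reads each. Their FPKM summed over all genes was less even, from 486414 in control replicate 1 to 566669 in propionic acid replicate 4. Levels are given in FPKM, which corrects fragment numbers for gene length and library depth, so genes can be compared per length. A member had between 481 and 18670 reads in a library, which gives a counting error of 0.811% to 4.16% of its mean. The standard deviation (SD) between mice of a group was 2.49% to 48.2% of the mean, and for all 28 members it was larger than the counting error in both groups. Intervals and errors from counts cover counting error only. Skin markers were present in every library: the summed FPKM of 5 basal keratinocyte markers was 4662 to 6044 in propionic acid mice and 4510 to 7348 in control mice, and that of 6 fibroblast markers 1960 to 3244 in propionic acid mice and 1707 to 3764 in control mice. Of 5 hair follicle markers, Shh stayed below 1 FPKM in every mouse and the sum was 2 to 17 in propionic acid mice and 1 to 2 in control mice.

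None of the 28 members passed an adjusted p of 0.05 between propionic acid and control skin (limma, Benjamini-Hochberg over all genes tested), and neither did any other gene, so the share of genes called was 0%. A voom fit of the recovered reads called 0 genes as well. The lowest adjusted p of a member was 0.77. The members had a median log2 fold change of 0.05, where the median of all genes tested was 0.01, and 15 of 28 (53.6%) had a positive value against 51.7% of all genes. At an unadjusted p under 0.05 there were 3 members, all with lower values in propionic acid skin, where 6.29% of all genes had such a p, 4.07% with a higher and 2.21% with a lower value. Those 3 were Abcg1, Stard4 and Mylip. No member had such a p without propionic acid replicate 4, without control replicate 2 or without control replicate 3. In other fits the enzymes Mvk, Tm7sf2, Msmo1 or Hsd17b7 were among the members with such a p, for example Tm7sf2 and Msmo1 beside Mylip without propionic acid replicate 1.

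**Figure D1:**
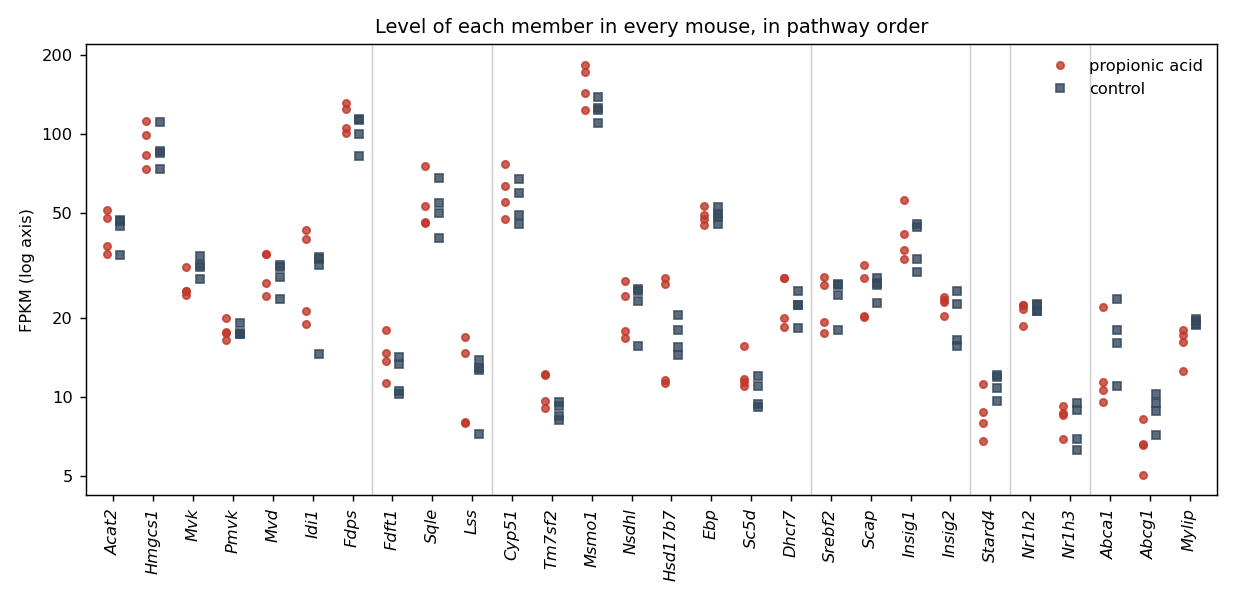
FPKM of the 28 members in each mouse on a log axis, in pathway order from acetyl-CoA to cholesterol and then regulators, carrier, LXR receptors and LXR targets. Red circles are the 4 propionic acid mice and dark squares the 4 control mice. Msmo1 had the highest level and Abcg1 and Nr1h3 the lowest, and the groups overlapped for every member but Mylip.

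The enzymes differed widely in level within the same skin. By the mean of all 8 mice, the methylsterol oxidase Msmo1 was highest at 140.4 FPKM, followed by the farnesyl diphosphate synthase Fdps at 109.3 FPKM and the HMG-CoA synthase Hmgcs1 at 90.7 FPKM. At the low end were the lanosterol synthase Lss at 11.8 FPKM, the sterol desaturase Sc5d at 11.4 FPKM and the sterol reductase Tm7sf2 at 9.80 FPKM. The steps in this order were small: the ranges over 8 mice overlapped in each of the 17 pairs of neighbours. Rank therefore separates the top of the list from the bottom, not a gene from the next one.

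Of the enzymes of the mevalonate stage, Hmgcs1 makes HMG-CoA and is a standard target of SREBP-2. Its level was 83.2, 112.9, 99.45 and 73.6 FPKM in propionic acid replicates 1 to 4, and 86.7, 74.1, 84.95 and 111.1 FPKM in control replicates 1 to 4. Each group held a mouse near the lowest value and a mouse near the highest, so the groups overlapped over most of their range. The log2 fold change was 0.05 with a 95% confidence interval of -0.33 to 0.42, and the interval spans a fold of 0.795 to 1.34. The other 6 members of this stage had log2 fold changes from -0.23 for the mevalonate kinase Mvk to 0.18 for Fdps, with an adjusted p of 0.802 for Mvk. Without control replicate 2 the value of Fdps was 0.08, and 26.7% of its exonic bases are shared with Gm43738 on the same strand. Mvk averaged 26.6 ± 3.14 FPKM in propionic acid skin and 31.4 ± 2.55 FPKM in control skin (SD, n = 4 each). Between those values lay the thiolase Acat2 (-0.02), the phosphomevalonate kinase Pmvk (0.00), the decarboxylase Mvd (0.06) and the isomerase Idi1 (0.09). In GRCm38 (mm10) coordinates Hmgcs1 is at chromosome 13, 119690379 to 119708260, and Idi1 on the same chromosome at 8885501 to 8892451.

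The squalene stage joins isoprenoids and closes the ring, and its epoxidase Sqle is held to be a rate-limiting step. Sqle had 46.4, 75.4, 53.4 and 46.1 FPKM in propionic acid replicates 1 to 4, against 50.3, 40.4, 54.7 and 68.1 FPKM in control replicates 1 to 4. Propionic acid replicate 2 was the highest mouse and control replicate 2 the lowest, and the remaining mice of both groups were mixed. The log2 fold change was 0.05 (95% confidence interval -0.39 to 0.49). Squalene synthase Fdft1 had a log2 fold change of 0.23 (SE 0.16, adjusted p = 0.852), which was 0.13 without propionic acid replicate 2, and Lss one of 0.00 (SE 0.27). For Fdft1, 18.3% of exonic bases are shared with exons of Ctsb on the opposite strand, and without a stated strand setting reads of the 2 genes cannot be told apart there.

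The stage between lanosterol and cholesterol held the members with the largest positive values. Msmo1 averaged 156.1 ± 27.3 FPKM in propionic acid skin and 124.7 ± 11.3 FPKM in control skin, with a log2 fold change of 0.31 (SE 0.15, limma adjusted p = 0.802). Tm7sf2 averaged 10.8 ± 1.65 FPKM in propionic acid skin and 8.85 ± 0.674 FPKM in control skin, with a log2 fold change of 0.25 (adjusted p = 0.815). It had 481 to 712 reads in a library, and 12.1% of its exonic bases are shared with Vps51 on the same strand. Sc5d had 0.23 (adjusted p = 0.841), and 0.13 without propionic acid replicate 2. Neither these nor the lanosterol demethylase Cyp51 (0.13), the reductase Dhcr7 (0.09), the ketoreductase Hsd17b7 (0.07), the sterol isomerase Ebp (-0.01) or the dehydrogenase Nsdhl (-0.06) passed. Over the 8 members the median log2 fold change was 0.11, with 6 positive and 2 negative values. For the 18 enzymes together the median was 0.07, and the 95% confidence interval of each of the 18 included 0. The widest interval was that of Idi1, from a fold of 0.63 to 1.80.

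**Figure D2:**
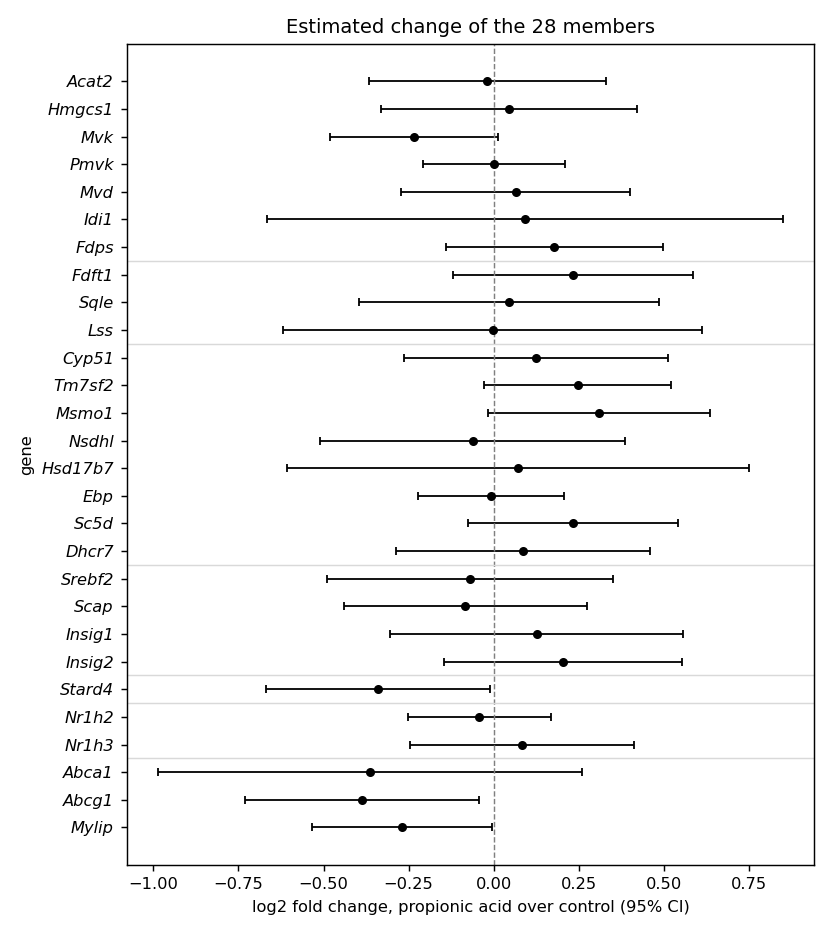
Log2 fold change of each member, propionic acid over control, with its unadjusted 95% confidence interval from limma (n = 4 mice per group). The dashed line marks no difference, and intervals of Stard4, Abcg1 and Mylip end just below it while all 18 enzyme intervals cross it.

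Among the regulators, Srebf2 codes for the factor that drives the pathway and is its own target. Srebf2 had 17.6, 28.7, 26.6 and 19.2 FPKM in propionic acid replicates 1 to 4 and 24.4, 17.9, 26.7 and 27.0 FPKM in control replicates 1 to 4. The lowest values thus came from propionic acid replicates 1 and 4 and control replicate 2, and the groups overlapped. The log2 fold change was -0.07 (95% confidence interval -0.49 to 0.35). The escort Scap had -0.08, the sterol-sensing anchors Insig1 and Insig2 had 0.13 and 0.20, and the lowest adjusted p of the 4 was 0.874. Insig2 had 0.10 without control replicate 3 and 0.32 without control replicate 4. These are transcript levels. Processing of the SREBP-2 protein was not measured.

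The promoters of Hmgcs1, Srebf2 and Abca1 are printed because they match patterns for sites of SREBP-2 and LXR. The SREBP patterns are forms named after Hmgcs1 and Srebf2, so finding each in its own gene is not a result. Each window runs from 250 bases before to 50 bases after the annotated start of the gene (RefSeq, GRCm38.p6), read 5′ to 3′ on the strand of the gene, with the motif match in capitals. The Hmgcs1 window is chr13:119690101-119690400 on the plus strand, that of Srebf2 chr15:82147019-82147318 on the plus strand, and that of Abca1 chr4:53159846-53160145 on the minus strand.
Hmgcs1: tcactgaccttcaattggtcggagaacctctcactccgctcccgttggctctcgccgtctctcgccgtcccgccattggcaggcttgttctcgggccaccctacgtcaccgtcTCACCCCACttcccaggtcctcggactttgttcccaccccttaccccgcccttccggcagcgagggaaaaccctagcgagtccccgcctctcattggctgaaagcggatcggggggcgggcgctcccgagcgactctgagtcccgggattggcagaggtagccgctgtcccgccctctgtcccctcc
Srebf2: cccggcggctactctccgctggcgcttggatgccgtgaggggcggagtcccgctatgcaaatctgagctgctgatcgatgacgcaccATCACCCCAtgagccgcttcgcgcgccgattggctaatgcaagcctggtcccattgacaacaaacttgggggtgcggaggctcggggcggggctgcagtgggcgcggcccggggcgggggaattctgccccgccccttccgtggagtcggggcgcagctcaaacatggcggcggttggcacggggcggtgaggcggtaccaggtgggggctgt
Abca1: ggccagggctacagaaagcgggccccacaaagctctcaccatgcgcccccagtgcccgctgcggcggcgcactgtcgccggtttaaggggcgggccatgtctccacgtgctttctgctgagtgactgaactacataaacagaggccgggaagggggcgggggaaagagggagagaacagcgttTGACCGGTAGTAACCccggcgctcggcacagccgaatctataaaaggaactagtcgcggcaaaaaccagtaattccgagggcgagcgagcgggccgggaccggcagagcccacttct
In Hmgcs1 the capitals mark the sterol regulatory element form TCACNCCAC, whose first base lies 137 bases before the start. In Srebf2 they mark the form ATCACNCCA, 163 bases before the start. The 2 forms share most of their letters. In Abca1 they mark an LXR-type direct repeat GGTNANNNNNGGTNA, found on the opposite strand from 67 bases before the start.

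Both strands of each window were searched, and 23 of the 28 members matched 30 windows. Fdps, Fdft1, Sqle, Stard4 and Abcg1 had no window and were not searched. TCACNCCAC was in 1 of the 30 windows and in 1.18% of the 12749 windows of tested genes, and ATCACNCCA in 1 of 30 and in 0.57%. Each of these matches was in the gene its form is named after, so these shares are no test of the members. The direct repeat was in 1 of 30 and in 0.50% of windows of tested genes. The NF-Y box CCAAT, whose factor works together with SREBP, was in 18 of 30 windows (60.0%) and in 37.16% of windows of tested genes. The Sp1 box GGGCGG was in 23 of 30 (76.7%) and in 60.74%. The median GC content was 62.3% in member windows and 60.3% in windows of tested genes. CCAAT matches came from 18 members, among them Hmgcs1, Idi1, Lss, Cyp51, Msmo1, Hsd17b7, Dhcr7, Insig1 and Srebf2. A match is a description of letters in these windows, not of binding.

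The same few mice held the extreme values of most enzymes. Propionic acid replicate 2 was the highest of the 8 mice for 13 of the 18 enzymes (72.2%), where it was highest for 12.5% of all genes tested. Control replicate 2 was the lowest mouse for 10 of the 18 (55.6%), where it was lowest for 15.0% of all genes. The summed FPKM of the 18 enzymes was 670.5, 953.6, 832 and 713.1 in propionic acid replicates 1 to 4, and 720.1, 622, 756.8 and 816.8 in control replicates 1 to 4. Propionic acid replicates 2 and 3 had the highest sums and replicates 1 and 4 were below 3 of the 4 control mice. The lowest sum of all was that of control replicate 2.

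**Figure D3:**
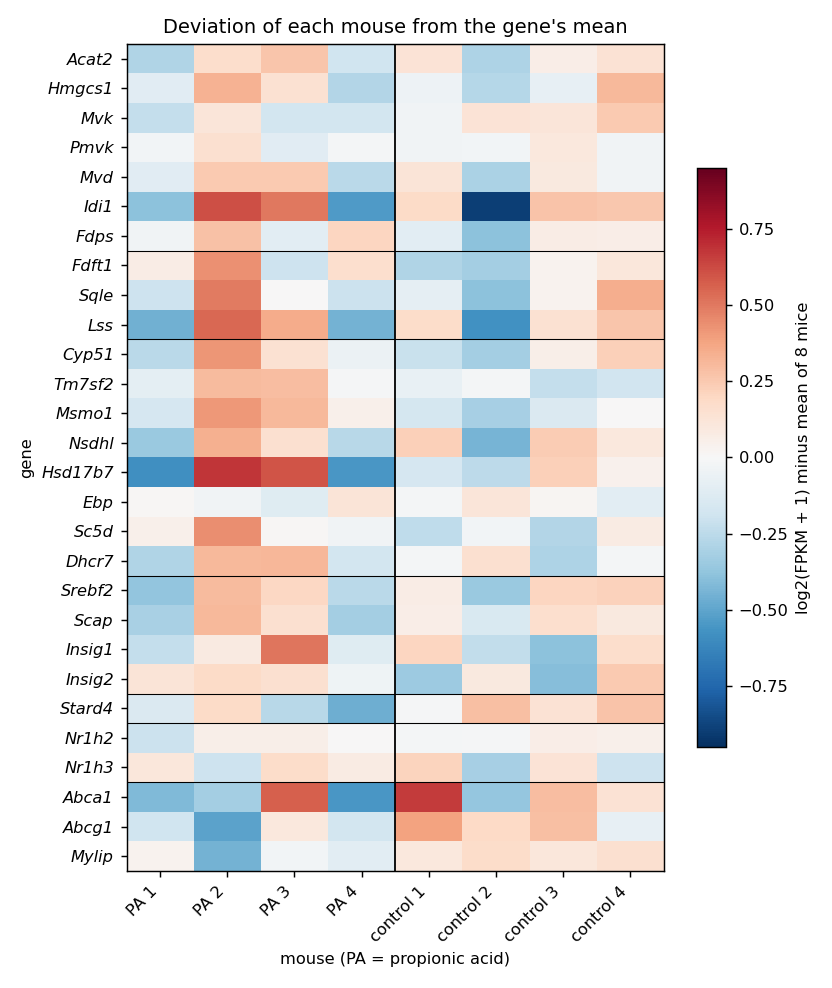
Deviation of log2(FPKM + 1) in each mouse from the mean of that gene over 8 mice, with red above and blue below, members in rows and mice in columns (propionic acid left of the black line, control right). The columns of propionic acid replicate 2 and control replicate 2 are mostly of 1 colour over the enzyme rows. In propionic acid replicate 2, Abca1, Abcg1 and Mylip have the other colour. In control replicate 2, Insig2, Stard4, Abcg1 and Mylip have the other colour and Abca1 does not.

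Among the enzymes, those with wide and with narrow spread were picked after their values were seen. Idi1, which turns isopentenyl diphosphate into its isomer, had 21.1, 43.2, 40.1 and 18.9 FPKM in propionic acid replicates 1 to 4 and 31.8, 14.6, 34.0 and 33.6 FPKM in control replicates 1 to 4, a 2.96-fold range. Hsd17b7 had 11.2, 28.4, 26.85 and 11.6 FPKM in propionic acid replicates 1 to 4 and 15.5, 14.4, 20.5 and 17.9 FPKM in control replicates 1 to 4. Its propionic acid values fell on both sides of all 4 control values. Lss ranged 2.34-fold over the 8 mice and was also highest in propionic acid replicate 2 and lowest in control replicate 2, whereas Ebp ranged 1.18-fold and Pmvk 1.205-fold. In 17 of the 18 enzymes (94.4%) the SD relative to the mean was larger in propionic acid mice, which was so for 49.2% of all genes tested. The median relative SD of the enzymes was 18.8% in propionic acid mice and 13.96% in control mice. Most of these enzymes had their extremes in the same mice, so the 17 are not separate observations, and the difference in spread was not tested.

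Skeletal muscle transcripts were high in the mice where enzymes were low. The summed FPKM of 8 muscle markers, all detected, was 6062, 3228, 3465 and 6222 in propionic acid replicates 1 to 4 and 4123, 4887, 3290 and 3796 in control replicates 1 to 4. The 3 mice with the highest muscle sums, propionic acid replicates 4 and 1 and control replicate 2, were also the 3 with the lowest enzyme sums. They had the 3 highest FPKM sums over all genes too, 566669, 566183 and 555246 in that order. The part of this library-wide difference in the enzyme sums was not tested. The mean of the propionic acid mice was the higher one for 5 of the 8 muscle markers. In bulk skin, fewer cells of a type and less RNA per cell cannot be told apart. With the muscle marker sum as a covariate, an alternative chosen after seeing the data, the median SE of the members was 0.12 in place of 0.16, 21 of 28 members had a positive log2 fold change with a median of 0.15, and 0 passed. The lowest adjusted p was then 0.476, for Msmo1 at a log2 fold change of 0.39. Summed adipocyte markers (8 genes, 7 with the higher mean under propionic acid) were 1615 to 3349 in propionic acid mice and 1531 to 2496 in control mice. Summed sebocyte markers (10 genes, 5 with a higher mean) were 1359 to 2025 in propionic acid mice and 1611 to 1778 in control mice. Those of suprabasal keratinocytes (6 genes, 4 with a higher mean) were 3817 to 7240 in propionic acid mice and 2225 to 8371 in control mice. The part of these cell types in the enzyme levels was not tested.

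**Figure D4:**
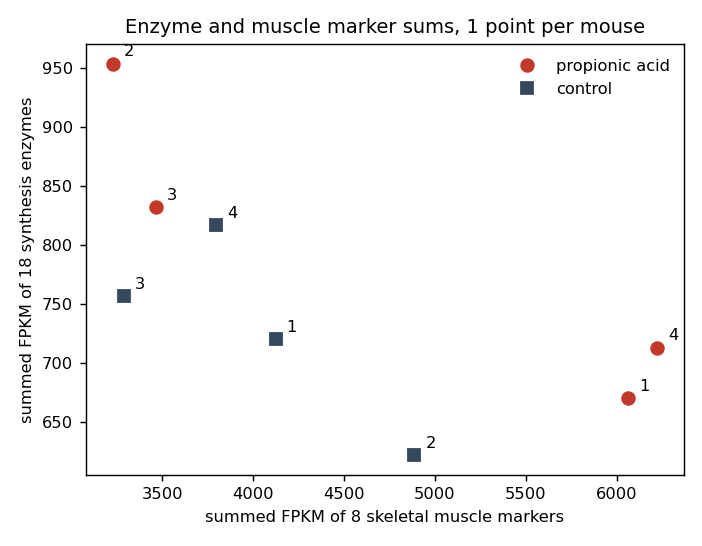
Summed FPKM of the 18 synthesis enzymes (vertical axis) against the summed FPKM of 8 skeletal muscle markers (horizontal axis), 1 point per mouse with its replicate number, propionic acid red and control dark. Neither axis starts at 0. Propionic acid replicates 1 and 4 (670.5 and 713.1) lie to the lower right and propionic acid replicates 2 and 3 (953.6 and 832) to the upper left.

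Stard4, a soluble carrier that moves cholesterol between membranes and is itself an SREBP target, averaged less in propionic acid skin. It had 8.77, 11.2, 7.94 and 6.78 FPKM in propionic acid replicates 1 to 4, against 9.62, 12.1, 10.8 and 11.9 FPKM in control replicates 1 to 4. Propionic acid replicates 1, 3 and 4 were below every control mouse and replicate 2 was not, so the groups overlapped. The log2 fold change was -0.34 (SE 0.15, unadjusted p = 0.0443 and limma adjusted p = 0.786, n = 4 each), and Stard4 did not pass.

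LXR beta (Nr1h2), the widely expressed form, and LXR alpha (Nr1h3), the form of macrophages, liver and fat, did not pass either. Nr1h2 averaged 21.3 ± 1.85 FPKM in propionic acid skin and 21.9 ± 0.663 FPKM in control skin (log2 fold change -0.04). Nr1h3 had 8.71, 6.88, 9.21 and 8.53 FPKM in propionic acid replicates 1 to 4 and 9.46, 6.25, 8.88 and 6.89 FPKM in control replicates 1 to 4. The mice of both groups were mixed over this range, and the log2 fold change of Nr1h3 was 0.08 (95% confidence interval -0.25 to 0.41).

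All 3 members listed as LXR targets had lower means in propionic acid skin, and none passed. They are a short list and do not stand for all genes under LXR. Further such genes are among the other sterol genes listed, and they did not all go the same way. Their log2 fold changes were -0.44 for Srebf1, -0.08 for Apoe, 0.00 for Lpcat3 and 0.03 for Apoc1. Abcg1, which loads cholesterol onto mature high-density lipoprotein, had 6.56, 5.04, 8.22 and 6.62 FPKM in propionic acid replicates 1 to 4, against 10.2, 8.82, 9.47 and 7.14 FPKM in control replicates 1 to 4. The groups overlapped only through propionic acid replicate 3 and control replicate 4. Its log2 fold change was -0.39 (SE 0.15, 95% confidence interval -0.73 to -0.04, unadjusted p = 0.031, limma adjusted p = 0.77), a fold of 0.764.

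Mylip, the LXR-induced brake on lipoprotein receptors, was the member whose groups did not overlap, a pattern seen in 3.16% of all genes tested, 2.06% with higher and 1.1% with lower values. Its level was 17.9, 12.5, 17.2 and 16.2 FPKM in propionic acid replicates 1 to 4, and 18.8, 19.8, 18.9 and 19.5 FPKM in control replicates 1 to 4. The gap was narrow, since the highest propionic acid mouse and the lowest control mouse nearly met, while propionic acid replicate 2 lay well below the rest. The log2 fold change was -0.27 (SE 0.12, unadjusted p = 0.0461, limma adjusted p = 0.786). Without propionic acid replicate 2 it was -0.16.

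Abca1, which passes cholesterol to lipid-poor apolipoproteins, had the widest spread of the 3. It had 10.6, 11.4, 22.0 and 9.57 FPKM in propionic acid replicates 1 to 4, against 23.5, 11.0, 18.01 and 16.04 FPKM in control replicates 1 to 4. Propionic acid replicate 3 was close to the highest control mouse and control replicate 2 close to the low propionic acid mice. The FPKM sum over all genes was lowest in the 2 mice with the most Abca1, control replicate 1 (486414) and propionic acid replicate 3 (490191). It was highest in the 2 with the least, propionic acid replicates 4 (566669) and 1 (566183), and a link was not tested. The log2 fold change of Abca1 was -0.36 (SE 0.28, limma adjusted p = 0.871). It was -0.61 without propionic acid replicate 3, -0.24 without propionic acid replicate 4, -0.20 without control replicate 1 and -0.55 without control replicate 2, each over 1.5 times away. Without both control replicates 1 and 3 the log2 fold change of Abca1 was -0.07 and that of Abcg1 -0.25. In GRCm38 (mm10), Abca1 is at chromosome 4, 53030787 to 53159895, Abcg1 at chromosome 17, 31057675 to 31117988, and Mylip at chromosome 13, 45389742 to 45412022.

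**Figure D5:**
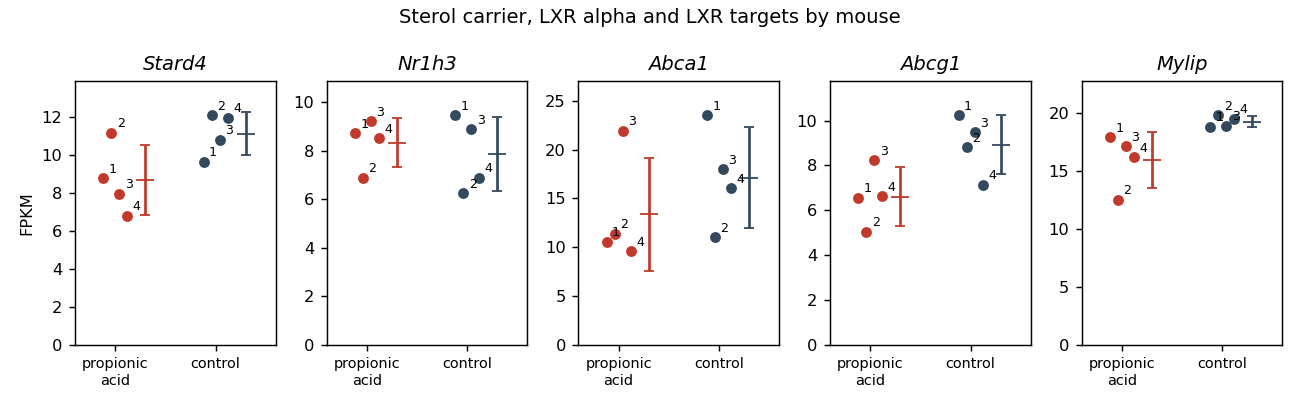
FPKM of Stard4, Nr1h3, Abca1, Abcg1 and Mylip in each mouse, with replicate numbers beside the points, propionic acid left and control right. Bars give the mean and SD of 4 mice, and each vertical axis starts at 0. Abcg1 and Mylip sit lower in most propionic acid mice, and Abca1 in propionic acid replicate 3 lies with the control mice.

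Macrophages export sterol through both transporters, and their markers had lower means in propionic acid skin as well, in 7 of 7 genes (Cd68, Adgre1, Csf1r, Lyz2, Mrc1, Cd163 and C1qa). The summed FPKM of these 7 was 1623, 1192, 1847 and 2006 in propionic acid replicates 1 to 4, and 2446, 1736, 2024 and 1594 in control replicates 1 to 4. Propionic acid replicate 2 had the lowest macrophage sum and the lowest Abcg1 and Mylip, and control replicate 1 the highest macrophage sum and the highest Abcg1 and Abca1. Not all mice followed this order. Propionic acid replicate 4 had a larger macrophage sum than control replicates 2 and 4, but the lowest Abca1 of all mice and less Abcg1 than every control mouse. Control replicate 4 had the smallest sum of the control mice and the lowest Abcg1 among them. Its Mylip, like that of each control mouse, was above that of every propionic acid mouse. With this sum as a covariate, chosen after seeing the data, the log2 fold change was -0.24 for Abcg1 (SE 0.12, limma adjusted p = 0.789), -0.21 for Mylip and -0.21 for Abca1. That of Stard4 was -0.50 (adjusted p = 0.327), and 0 members passed. The part of macrophages in these values was not tested.

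Beyond the 28 members, 35 other sterol genes were listed, and 31 were high enough to be tested. The 4 that were not are the esterifying enzyme Soat2, the transporter pair Abcg5 and Abcg8 of liver and gut, and Gramd1b. Of the 31, 10 had a higher and 21 a lower value in propionic acid skin, with a median log2 fold change of -0.08, and 0 passed. Higher values thus made up 32.3% of the 31, against 51.7% of all genes tested. The list was drawn up with earlier results of these data known. At an unadjusted p under 0.05 there were 2 of them (6.45%), both oxysterol enzymes with lower values, where 6.29% of all genes had such a p. The count was 5 without propionic acid replicate 3, 6 without control replicate 2, 3 without control replicate 4 and 7 with library weights. Ch25h, which makes an oxysterol that binds INSIG and LXR, had 2.49, 2.83, 3.16 and 3.54 FPKM in propionic acid replicates 1 to 4 and 6.80, 7.25, 6.53 and 5.26 FPKM in control replicates 1 to 4 (limma adjusted p = 0.0998). Cyp7b1, which hydroxylates oxysterols further, had 5.65, 5.63, 6.23 and 8.14 FPKM in propionic acid replicates 1 to 4 and 15.8, 10.5, 20.4 and 10.8 FPKM in control replicates 1 to 4 (limma adjusted p = 0.305). In both genes every propionic acid mouse was below every control mouse. Groups did not overlap in these 2 of the 31, and in 3.16% of all genes tested, 1.1% with lower values. Their log2 fold changes were -0.90 (SE 0.13) and -1.02 (SE 0.21), beyond those of all 28 members.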

How the data were processed

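Per the labels' protocols, total RNA of back skin was extracted with TRIzol and 1 library per mouse was made with the VAHTS Universal V6 kit. The authors deposited 1 FPKM value per gene and library for 25378 genes. Per the submitters' processing notes, reads were processed with CASAVA, cutadapt and HISAT2 2.1.0 on mm10. Counting program, strand setting and gene annotation: not given in the sources used here. The labels call the samples biological replicates, taken here as separate mice. If they were not, p-values measure only the spread between these samples.

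FPKM is not a count, so the form of the design for normalized values was used. A gene was tested if 4 libraries or more reached an FPKM of 1. The test was limma 3.58.1 in R 4.3.3 on log2(FPKM + 1), 2-sided, with group as the sole term, an intensity trend, robust moderation, Benjamini-Hochberg adjustment over all genes tested and a threshold of 0.05. Fold changes on this scale understate changes of low genes. Confidence intervals are unadjusted 95% intervals. Within a gene, FPKM values stood in whole-number steps, and whole reads were recovered for 25378 genes (100% of them, tolerance 0.01 of a read), which served for depth, counting error and a voom fit.

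The members and gene lists were chosen with earlier results of these data known. Each member is named, and per-mouse values are given for Hmgcs1, Sqle, Srebf2, Abca1, Abcg1, Nr1h3, members with an unadjusted p under 0.05 and members whose groups do not overlap. Those of Idi1 and Hsd17b7 were added after their values were seen. Other sterol genes are named at an unadjusted p under 0.05, as are those too low to be tested. Srebf1, Apoe, Lpcat3 and Apoc1 are named beside the LXR targets. Positions come from GENCODE vM21, matched by symbol, and promoters from RefSeq, matched by gene ID. Of the 28 members, 9 share exonic bases with another gene. The limma step was tried on simulated data in which each gene varied on its own. Here many genes moved together by mouse, so that trial cannot vouch for the p-values of these data. No 2 libraries differed by so little as sampling noise: the squared read difference was at least 82.7 times its sampling variance. Alternatives were other pseudocounts, scalings and weights, no filter, voom, the replicate number as a block, each mouse left out, and marker sums as covariates.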

Additional observations from a re-analysis of the deposited data

Results flagged for a closer look

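In 5 of 56 groups (8.93%), 28 members in each of 2 groups, a single mouse stood far from the other 3 by Dixon's criterion, which chance alone meets in about 1 of 20 groups. Mvk had 31.3 FPKM in propionic acid replicate 2, against 24.4 to 25.4 FPKM in the other propionic acid mice. Sc5d had 15.65 FPKM in the same mouse, against 11.0 to 11.7 FPKM in the others. Abca1 had 22.0 FPKM in propionic acid replicate 3, against 9.57 to 11.4 FPKM in the others. Among control mice, Idi1 had 14.6 FPKM in replicate 2, against 31.8 to 34.0 FPKM in the others. Pmvk had 19.2 FPKM in control replicate 3, against 17.4 to 17.5 FPKM in the others, a small step in a gene of little spread.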

How the results depend on the processing

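No member and no other sterol gene passed the threshold under any of the 19 alternatives run, in each of which 0 were called. Over all genes the count was 0 with 1 exception among the planned fits on 8 mice, library weights, where it was 1 (Ucp3). It was 0 to 2 with each mouse left out: 1 without control replicate 2 (Ucp3) and 2 without control replicate 3 (Cbln1 and Nr1d2). The median log2 fold change of the members lay between -0.08 (library weights) and 0.15 (muscle covariate), and between -0.06 and 0.13 with each mouse left out. Library weights left 9 members with positive values. Among all genes at an unadjusted p under 0.05, 64.8% had higher values as deposited, 54.2% with library weights and 56.4% with quantile normalization. Library weights gave 15.2% of all genes such a p.

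Of 532 values of single members, 464 kept their sign and 68 did not, and 10 members kept it throughout: Mvk, Fdps, Fdft1, Tm7sf2, Msmo1, Sc5d, Stard4, Abca1, Abcg1 and Mylip. The log2 fold changes that turned were all below the threshold. With library weights they were -0.0573 for Hmgcs1, -0.0604 for Mvd, -0.2414 for Idi1, -0.0942 for Sqle, -0.0267 for Cyp51, -0.2506 for Hsd17b7, 0.0246 for Ebp and -0.0004 for Dhcr7. Quantile normalization gave 0.0014 for Lss. Without both control replicates 1 and 3 they were 0.068 for Acat2, 0.0314 for Pmvk, 0.1558 for Lss, 0.1399 for Nsdhl, -0.0264 for Dhcr7, 0.0332 for Srebf2 and -0.0705 for Insig2. The muscle covariate gave 0.0793 for Acat2, 0.017 for Pmvk, 0.1981 for Lss, 0.0735 for Nsdhl, 0.0622 for Srebf2 and 0.0304 for Scap. The macrophage covariate gave -0.0707 for Hmgcs1, -0.1017 for Sqle, -0.0878 for Hsd17b7 and 0.0068 for Ebp. The cause was not tested.

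With each mouse left out in turn, values that crossed 0 ranged from -0.1193 to 0.0728 for Acat2, -0.0571 to 0.1547 for Hmgcs1, -0.0504 to 0.0345 for Pmvk, -0.0266 to 0.1605 for Mvd, -0.19 to 0.2876 for Idi1, -0.1106 to 0.1692 for Sqle, -0.1966 to 0.1489 for Lss and -0.218 to 0.0454 for Nsdhl. For Hsd17b7 they ranged from -0.1434 to 0.2785, for Ebp from -0.0502 to 0.0282, for Dhcr7 from -0.0053 to 0.1947, for Srebf2 from -0.198 to 0.0452, for Scap from -0.2003 to 0.0106, for Insig1 from -0.0212 to 0.2218, for Nr1h2 from -0.0695 to 0.0182 and for Nr1h3 from -0.0081 to 0.1679.

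The labels do not say that replicate numbers pair the mice. Same-numbered mice had correlations of -0.319, -0.081, 0.2 and -0.117 in their deviations from the group means. Mice with different numbers were not compared in this way, so these values cannot exclude a shared factor. With the replicate block, the median of the members was 0.05, 0 were called, and Abcg1 alone had an unadjusted p under 0.05. With 4 mice a group, the intervals leave room for changes up to a fold of 1.80 (Idi1) and down to 0.505 (Abca1).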
